A study of Homo sapiens with 54 samples.

Results

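The regions described here were stretches of accessible chromatin that lay more than 10 kb from the genes of the expression tables. They were open both with and without a KDM3B inhibitor in RH4, an established cell line of fusion-positive rhabdomyosarcoma that carries the PAX3-FOXO1 fusion. They were chosen by the ATAC-seq peak lists themselves, as the peaks of the DMSO library that overlapped a peak of the P3FI-63 library by at least 1 bp and lay more than 10 kb from every gene interval in the expression tables. This gave 3634 regions among the 30221 DMSO peaks. Of the 4638 DMSO peaks beyond 10 kb from a gene (15.3% of the list), 78.4% were therefore kept, with a 95% exact binomial interval from 77.1 to 79.5 that covers counting error only. Among the 25583 DMSO peaks nearer to genes 85.5% were kept, and over the whole list 84.4%. Overlap between the lists defined the regions, and there was 1 ATAC-seq library per condition, so these shares and all ATAC-seq values below are descriptions without a test.

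P3FI-63 is the compound that the study found in a screen for inhibitors of PAX3-FOXO1 activity and described, with P3FI-90, as an inhibitor of histone lysine demethylases, above all KDM3B. The ATAC-seq libraries came from RH4 cells given DMSO or 10 µM P3FI-63 for 4 h. Peak lists of ChIP-seq came from cells given DMSO or P3FI-90 for 24 h, at 1 µM where the labels give a dose, so they concern the other compound and a later time. Expression was read in 3 DMSO, 2 P3FI-63 (10 µM) and 3 P3FI-90 (1 µM where given) libraries at 24 h and in 1 DMSO and 1 P3FI-63 library of the compound screen. All groups were the same line, the study describes its replicates as biological while no label says that they were separate cultures, and p-values measure the spread between these libraries. In DMSO the muscle lineage markers MYOD1 (192 to 290 TPM, a length-normalised transcript abundance), MYOG, DES, CHRNA1 and CDH15 were high, MYF6 was at 0 to 0.18 TPM, and of the 9 leukocyte, endothelial and epithelial markers CD68 was at 2.58 to 10.9 TPM and the other 8 at 0.37 TPM or less.

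In ATAC-seq a transposase cuts where nucleosomes are displaced, which happens at promoters and also at enhancers and CTCF-bound sites that can lie far from any gene. Distal elements of muscle cells and of rhabdomyosarcoma are rich in E-boxes, the recognition sequence of the myogenic bHLH factors MyoD and myogenin. AP-1 sites are bound by FOS and JUN family dimers, which accumulate in cells under stress or growth factor signalling. H3K4me3 marks promoters, H3K27me3 is laid down by Polycomb, H3K9me2 is the mark that KDM3B removes, and HP1 reads methylated H3K9 in heterochromatin.

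Because the sequence under a peak took no part in choosing the regions, windows of 201 bases centred on the DMSO summit are shown first, for regions whose values are given further on. They are GRCh37/hg19 sequence of the plus strand, in lower case, with every match to the E-box CAGCTG, the AP-1 site TGANTCA and the TEAD site CATTCC in capitals. The first 3 hold only E-boxes: one of the 10 regions with the highest fold enrichment (chr13:37352307-37352507, nearest gene RFXAP) and 2 of the 5 whose fold enrichment fell most after P3FI-63 (chr7:118012753-118012953, ANKRD7, and chr2:220809761-220809961, MIR4268). The next 2 hold an AP-1 site: one of the 5 with the largest rise (chr3:53304018-53304218, DCP1A) and one of a dense group (chr20:47099500-47099700, LINC00494), where the AP-1 site runs into an E-box. Another comes from the largest group of neighbouring regions (chr2:241140152-241140352, OTOS). The last 2 are the strongest regions nearest to the genes that form the fusion, PAX3 (chr2:222941887-222942087, no match) and FOXO1 (chr13:41255934-41256134, a TEAD site and an E-box). The rises and falls shown were picked because they held a match: the other 4 of the 5 largest rises had no AP-1 site, and the ADRA2A region among the falls had no E-box.
RFXAP region: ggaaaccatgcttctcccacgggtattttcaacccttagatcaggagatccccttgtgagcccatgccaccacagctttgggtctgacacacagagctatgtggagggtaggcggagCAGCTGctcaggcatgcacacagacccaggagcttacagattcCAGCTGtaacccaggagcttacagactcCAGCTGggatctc
ANKRD7 region: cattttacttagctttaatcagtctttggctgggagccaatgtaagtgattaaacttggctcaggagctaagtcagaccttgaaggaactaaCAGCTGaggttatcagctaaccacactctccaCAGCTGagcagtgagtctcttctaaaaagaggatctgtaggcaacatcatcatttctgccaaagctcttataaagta
MIR4268 region: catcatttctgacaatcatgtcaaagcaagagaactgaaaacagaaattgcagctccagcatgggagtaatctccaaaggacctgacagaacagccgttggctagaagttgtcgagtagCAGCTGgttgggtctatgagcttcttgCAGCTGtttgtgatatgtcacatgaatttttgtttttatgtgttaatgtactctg
DCP1A region: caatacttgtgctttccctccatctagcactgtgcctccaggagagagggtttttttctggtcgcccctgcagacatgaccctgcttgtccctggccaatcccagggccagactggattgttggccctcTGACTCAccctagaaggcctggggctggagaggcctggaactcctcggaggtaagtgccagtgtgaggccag
LINC00494 region: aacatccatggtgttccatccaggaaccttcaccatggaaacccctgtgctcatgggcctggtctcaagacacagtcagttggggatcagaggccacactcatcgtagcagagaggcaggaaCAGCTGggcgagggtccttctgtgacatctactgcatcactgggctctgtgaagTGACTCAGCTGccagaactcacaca
OTOS region: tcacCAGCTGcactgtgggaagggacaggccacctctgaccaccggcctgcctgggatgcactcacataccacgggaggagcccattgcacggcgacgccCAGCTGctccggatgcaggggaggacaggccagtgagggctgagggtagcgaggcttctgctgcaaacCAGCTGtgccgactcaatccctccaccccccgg
PAX3 region: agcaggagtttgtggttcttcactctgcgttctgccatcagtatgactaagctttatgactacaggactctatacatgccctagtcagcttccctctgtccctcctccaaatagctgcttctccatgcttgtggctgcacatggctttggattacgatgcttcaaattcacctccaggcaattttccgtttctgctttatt
FOXO1 region: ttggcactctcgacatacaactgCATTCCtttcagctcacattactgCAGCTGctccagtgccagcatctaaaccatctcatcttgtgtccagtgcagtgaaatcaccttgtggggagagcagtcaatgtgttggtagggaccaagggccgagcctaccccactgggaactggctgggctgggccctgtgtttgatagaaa

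E-boxes were the commonest of the motifs searched. A CAGCTG lay in 46.9% of the windows (95% exact interval 45.2 to 48.5, 1703 of 3634), and 446 windows held 2 or more. The same share was 36.4% in kept peaks within 10 kb of a gene, 39.8% over all DMSO peaks and 8.44% in windows of the same length taken 2 kb to either side of the kept intergenic regions. It was highest, at 52.3% (49.1 to 55.4), in the 1004 intergenic DMSO peaks that had no counterpart after P3FI-63, and lowest among peaks, at 28.7% (27.5 to 30.0), in the 4909 intergenic P3FI-63 peaks that overlapped no DMSO peak. The distance from summit to match had a median of 39.5 bp.

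AP-1 sites were ordered the other way. TGANTCA, searched on both strands, lay in 17.9% of kept intergenic windows (16.6 to 19.1, 649 regions), in 8.07% (6.46 to 9.93) of the intergenic peaks that were not kept and in 29.1% (27.8 to 30.4) of those seen only after P3FI-63, against 12.1% of kept peaks near genes, 11.8% of all DMSO peaks and 6.31% of flanks. The intervals of the 3 intergenic groups did not overlap. They cover the counting of peaks only and not the spread between libraries, so a difference between conditions was not tested. From the peaks not kept through the kept ones to those seen only with P3FI-63, the share with an E-box thus went down and the share with an AP-1 site went up.

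The other motifs separated the regions from their flanks more than from one another. The TEAD site CATTCC, bound by the TEAD factors that work with YAP and VGLL proteins, lay in 20.2% of kept intergenic windows, 19.5% of those not kept and 10.8% of flanks. RUNX sites (TGTGGTT) lay in 7.43%, against 5.71% of all DMSO peaks and 3.85% of flanks. The CTCF consensus, searched as an exact string with ambiguous letters, lay in 3.47% (126 regions), 1.79% of peaks not kept, 2.44% of all DMSO peaks and 0.0551% of flanks. With 1 letter allowed to differ, these shares were 10.8% in the kept regions, 7.27% in those not kept and 0.757% in flanks. FOX sites (TGTTTAC, 3.08% against 2.44% of all DMSO peaks and 2.96% of flanks) and the MEF2 motif (0.303%, 0.334% and 0.523%) showed no such contrast, and the short paired-domain string GTCACGNT lay in 1.18%, against 1.25% of all DMSO peaks and 0.454% of flanks. The paired homeodomain palindrome had 0 matches in 3634 windows, which allows a share of up to 0.101%, and 0.0199% over all DMSO peaks.

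**Figure D1:**
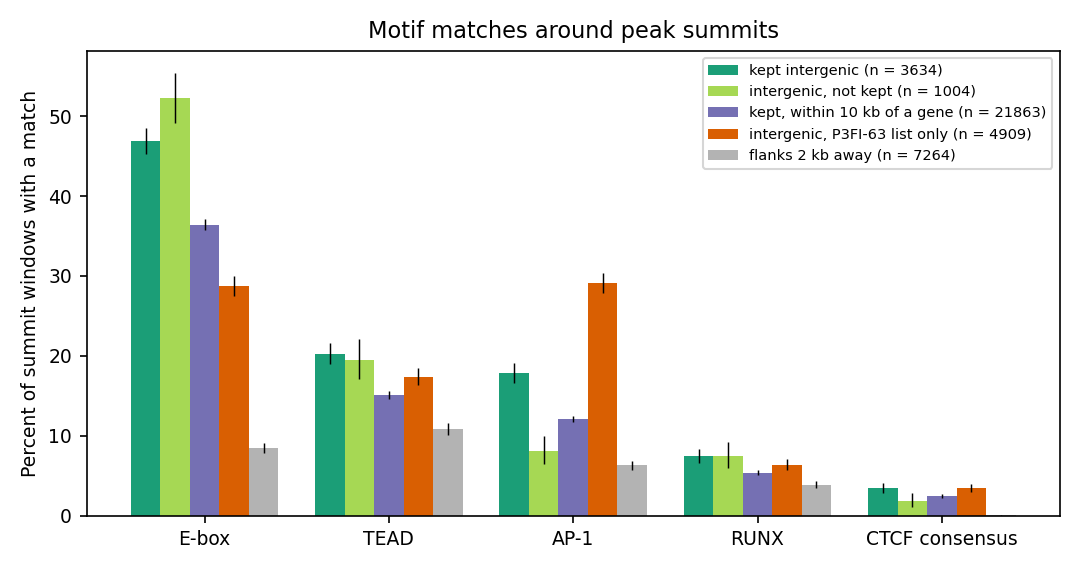
Percent of summit windows (vertical axis) with at least 1 match to each motif (horizontal axis), by class of region, with 95% exact binomial intervals as error bars. E-boxes were in 46.9% of kept intergenic regions and 28.7% of intergenic peaks seen only after P3FI-63, AP-1 sites in 17.9% and 29.1%.

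Kept intergenic regions were intermediate in base composition. Their windows had a median GC content of 51.7% (quartiles 47.8 and 57.2), against 58.2% in kept peaks near genes, 49.3% in intergenic peaks not kept and 43.3% in flanks. Only 270 windows (7.43%) held 10 or more CpG dinucleotides, the mark of a CpG island promoter, while 36.1% of kept peaks near genes did. Low-complexity sequence was rare, with under 80% distinct 8-base words in 24 windows.

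The peaks were narrow, and most were wider after P3FI-63. The P3FI-63 list was longer as a whole, with 55987 peaks over 7.38 Mb, against 30221 peaks over 3.72 Mb in DMSO. The part of this difference between the libraries in the widths and heights given here was not tested. In DMSO the 3634 regions measured 53 to 519 bp with a median of 106 bp and quartiles of 71 and 158 bp, close to kept peaks near genes (median 110 bp) and above intergenic peaks that were not kept (median 66 bp). In the P3FI-63 list the matching peaks measured 55 to 759 bp with a median of 134 bp. Width was greater with P3FI-63 at 2492 regions (68.6%, against 76.6% of kept peaks near genes), smaller at 1101 and the same at 41. The summits lay a median of 16 bp apart, and 3035 (83.5%) were within 50 bp of each other. A P3FI-63 peak that no DMSO peak overlapped lay within 2 kb of 385 regions (10.6%), against 17.6% of kept peaks near genes.

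Fold enrichment, the height of a peak over its local background as the peak caller gave it, ran from 5.25 to 95.8 in DMSO with a median of 10.3, and the median in P3FI-63 was 13.3. By rank within each list the regions lay in the middle of the DMSO list (median percentile 55.8) and higher in the longer P3FI-63 list (69.0). In DMSO 401 regions (11.03%) belonged to the top 10% of the list and 244 to the top 10% of both lists, and 13 of the 100 highest DMSO peaks were among them. Across the 3634 regions the ranks of fold enrichment in the 2 lists had a Spearman correlation of 0.49 (0.56 in kept peaks near genes), and width and fold enrichment in DMSO one of 0.51. These points share their library, and the values repeat (1488 distinct values, with 8.62 shared by 200 regions).

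The gain after P3FI-63 was smaller than elsewhere. The log2 ratio of fold enrichment, P3FI-63 to DMSO, had a median of 0.32 (95% interval over regions 0.30 to 0.35), against 0.43 in kept peaks near genes and 0.42 over all 25497 kept peaks. It ranged from -1.45 to 2.16 and was above 0 at 2641 regions and below at 993. More than 1.5-fold higher values were found at 1111 regions (30.6%), where 36.7% of all kept peaks had them, and more than 1.5-fold lower values at 164 (4.51%), where 2.74% did. With the values of each list divided by their median over all kept peaks, the median at the intergenic regions was -0.16. This scaling uses the median of each list and not the median ratio, so -0.16 is not the gap between 0.32 and 0.42. The ratio also went with base composition: in 4 equal groups by GC content, from low to high, its median was 0.21, 0.28, 0.36 and 0.44. Median GC content was 51.7% here and 58.2% in kept peaks near genes, and its part in the smaller gain was not tested.

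**Figure D2:**
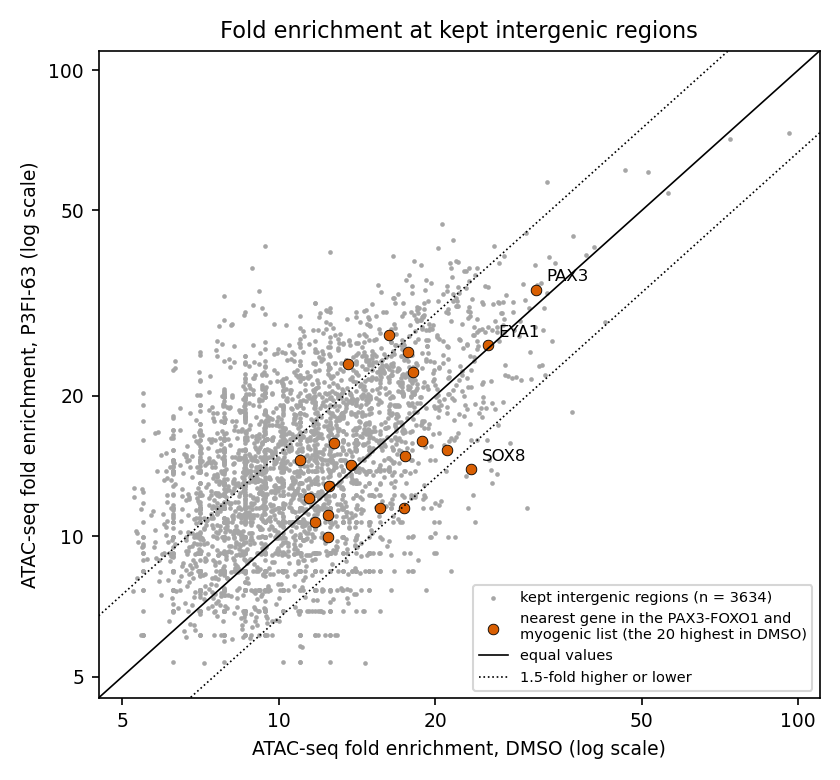
ATAC-seq fold enrichment of the 3634 kept intergenic regions in the DMSO library (horizontal, log scale) and the P3FI-63 library (vertical, log scale). Orange points are the 20 regions highest in DMSO among those whose nearest gene is in a list of PAX3-FOXO1 targets and myogenic genes, solid and dotted lines mark equal and 1.5-fold different values, and more points lie above the solid line (2641) than below it (993).

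Weak and strong regions differed in this. In 4 equal groups by DMSO fold enrichment, from low to high, the median log2 ratio was 0.56, 0.37, 0.22 and 0.14, and the median width was 74, 90, 117 and 155 bp. A region near the lower limit of a list can only have been kept if it was also high enough in the other, so a fall of the ratio with the DMSO value is built into the choice. Among all 4638 intergenic DMSO peaks the share kept was 61.8%, 72.3%, 84.2% and 95.1% from the lowest to the highest of 4 such groups.

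Motif content divided the regions further. Regions with an E-box had a median log2 ratio of 0.25 and those without one 0.38, while regions with an AP-1 site had 0.51 and those without one 0.28. The 392 regions with an AP-1 site and no E-box stood at 0.56 (0.48 to 0.63), the 257 with both at 0.44 (0.39 to 0.52), the 1539 with neither at 0.35 (0.31 to 0.38) and the 1446 with an E-box alone at 0.22 (0.19 to 0.24). The values in brackets are intervals over regions and do not cover the spread between libraries. A difference between the motif groups in their response to P3FI-63 was not tested. More than 1.5-fold higher values were found at 48.2% of the AP-1-only regions and 22.6% of the E-box-only regions. Read the other way, 26.2% of the 1111 regions that were more than 1.5-fold higher held an AP-1 site and 38.6% an E-box, while of the 164 that were more than 1.5-fold lower 6.10% held an AP-1 site and 57.3% an E-box. The order of the medians, lower with an E-box and higher with an AP-1 site, held in each of 4 equal groups by GC content. Median DMSO fold enrichment differed too, at 9.40 in AP-1-only and 10.97 in E-box-only regions, and its part in the difference was not tested.

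**Figure D3:**
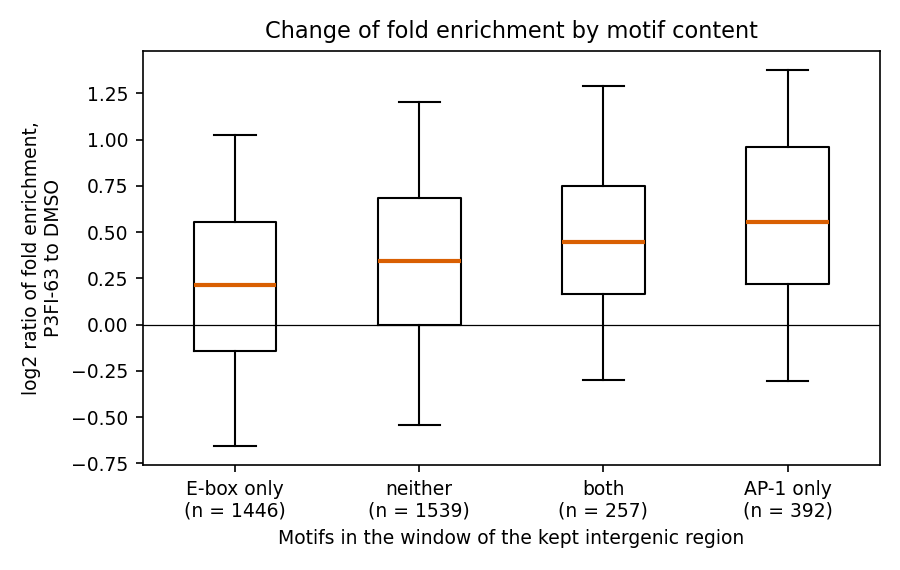
log2 ratio of fold enrichment, P3FI-63 to DMSO (vertical), for kept intergenic regions grouped by the motifs in their windows (horizontal). Boxes span the quartiles, the orange line is the median and whiskers reach the 5th and 95th percentiles; the medians rise from 0.22 with an E-box alone to 0.56 with an AP-1 site alone.

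Distance to the nearest gene interval had a median of 47473 bp and reached 1.33 Mb. With distance, fewer peaks were kept and the gain was smaller. At 10 to 25 kb 82.6% of DMSO peaks were kept and the 1098 regions had a median log2 ratio of 0.39; at 100 to 500 kb 72.3% were kept and the 858 regions had 0.22; beyond 500 kb 65.2% were kept and the 86 regions had 0.15. Median DMSO fold enrichment differed little over these bins (10.3, 10.6 and 11.2). Just inside the limit were regions 10015 bp from MIR129-1, 10021 bp from CSNK1A1 and 10034 bp from PRR5, with fold enrichment of 10.2, 7.47 and 8.33 in DMSO and 13.8, 10.03 and 11.04 in P3FI-63. Just outside it were peaks 9997 bp from PLPPR1, 9992 bp from SOX2-OT and 9990 bp from LL22NC01-81G9.3, with 23.6, 9.67 and 10.1 in DMSO and 15.6, 16.8 and 27.001 in P3FI-63.

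What counts as intergenic depended on the gene table. Of its 27043 gene intervals 134 were longer than 2.5 Mb, because genes with copies at several places, such as MIR7641-2 (228 Mb), were given as 1 interval, and these covered most of some chromosomes: chromosome 1 had 17 regions, chromosome 12 had 13 and chromosome 15 none, while chromosome 3 had 487. Without those intervals there were 6055 kept regions, with 78.2% kept, a median log2 ratio of 0.32 and a median width of 107 bp. Per Mb of sequence beyond 10 kb from a gene, counted without those intervals, they were densest on chromosome 20 (9.97 per Mb) and sparsest on chromosome X (1.98).

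Against the GENCODE annotation of the same build, 2496 of the 3634 regions (68.7%) lay outside every gene. Another 1138 lay inside one, 799 of them inside a long non-coding RNA gene and 351 inside a protein-coding gene, and 173 touched an exon. Only 1793 regions (49.3%) lay more than 10 kb from every GENCODE gene. With GENCODE intervals in place of those of the expression tables, the same rule gave 2973 kept regions. An annotated start site lay within 1 kb of 278 regions (7.65%), against 46.0% of kept peaks near genes. Those 278 had the same median log2 ratio (0.32) as the rest (0.32) and were more often under H3K4me3 in DMSO library 1 (38.1% against 21.0%).

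The 10 regions with the highest fold enrichment in DMSO included unusual sequence. The highest of all DMSO peaks, 47.1 kb from EMC2 on chromosome 8, had 95.8 in DMSO (rank 1) and 73.3 in P3FI-63 (rank 4). Within this peak 20 bases matched the mitochondrial genome exactly. The region at chr5:10438-10515 (73.7, rank 2, and 71.0, rank 7) lay at the chromosome's end in a window with 31 copies of the telomere repeat, and the one at chr10:130262804-130262883 (42.4 and 28.8) had only 49.5% distinct 8-base words in its window. The region at chr4:83206050-83206402 lay over an exon of the pseudogene VAMP9P, 68.1 kb from HNRNPD, with 56.1 and 54.6. The part of mapping in these values was not tested.

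Others of the 10 had at least 93.8% distinct 8-base words in their windows. The region at chr21:15399561-15399709, within 26 bp of an unnamed gene's start site and with a TEAD site, had 51.4 in DMSO and 60.5 in P3FI-63, and the one at chr3:5468127-5468252, 176 kb from MIR4790, had 46.3 and 61.1. The RFXAP region shown above, with 3 E-boxes and 40.8 kb from RFXAP (a subunit of the factor that drives MHC class II genes), had 38.9 and 40.1 and lay under H3K4me3 in libraries 1 and 4 of DMSO and of P3FI-90. The region at chr9:74599441-74599625 (40.4 and 41.7) lay 11.1 kb from C9orf85 in the table and over an exon of it in GENCODE. The region at chr3:86972430-86972613, in the gene VGLL3 by GENCODE and 14.5 kb from it by the table, fell from 36.6 (rank 47) to 18.5 (rank 7720). VGLL3 encodes a TEAD cofactor.

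The largest changes were seen at regions of quite different rank. The region nearest to GRAP, over the small nucleolar RNA gene SNORD3B-2 at chr17:18967119-18967171, had 9.40 in DMSO and 42.0 in P3FI-63, a log2 ratio of 2.16, and lay under Pol2 Ser5 in both ChIP-seq conditions. It was followed by a region 86.9 kb from PTPN1, a tyrosine phosphatase (8.86 to 37.6), the DCP1A region with the AP-1 site shown above (7.83 to 32.8), one over the immunoglobulin gene segment IGLV1-40 (6.32 to 23.8) and one 38.6 kb from MCHR1 (7.83 to 29.2). The largest falls were at a region 14.5 kb from RDH10-AS1 (14.7 to 5.35), at the ANKRD7 region with 2 E-boxes (30.0, rank 188, to 11.5, rank 23011), at one 14.7 kb from PHACTR2-AS1 (21.5 to 8.43), at the MIR4268 region with 2 E-boxes (19.2 to 7.66) and at one 106 kb from ADRA2A, an adrenergic receptor gene (12.53 to 5.36). The ANKRD7 and PHACTR2-AS1 regions lay inside ANKRD7 and PHACTR2 by GENCODE.

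The widest region, 519 bp at chr3:29140893-29141411 (RBMS3-AS3, inside RBMS3 by GENCODE), had a fold enrichment of 9.62 in DMSO and 13.3 in P3FI-63. The other 4 of the 5 widest, nearest to ZBTB18, IL20RB, LOC101929161 and OPA1, measured 462 to 478 bp in DMSO, where 263 bp (IL20RB) to 531 bp (LOC101929161) was called after P3FI-63. Fold enrichment went from 21.1 to 18.4 at the IL20RB region and from 21.6 to 19.8 at the OPA1 region. All 5 lay under an H3K4me3 peak in at least 1 DMSO library.

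Most regions stood alone: 2561 had no neighbour close enough to be joined, 383 pairs held 766, 71 runs held 3 each, 15 held 4, 4 held 5, and the 2 longest 6 and 8. The longest run had 8 regions in 51.1 kb at chr2:241140112-241191187, 60.0 to 111 kb from OTOS, of which 6 were higher after P3FI-63. Its first region, shown above with 3 E-boxes, went from 13.0 to 25.1, while the one at chr2:241166709-241166924 stood at 8.50 and 8.41. A run of 6 near AZIN1 on chromosome 8 held a region that went from 21.4 to 38.6. Of the runs of 5, those near PRRC2B and PTPN1 had 5 of 5 regions higher, and those near LINC00494 and LOC285389 had 3 of 5 each. By GENCODE, regions of the PRRC2B run at chr9:134258725-134258889, chr9:134269160-134269212 and chr9:134278307-134278599 lay inside PRRC2B. In the LINC00494 run a region at chr20:47083945-47084037 lay under H3K4me3 in all 6 libraries, and the AP-1 and E-box region shown above went from 15.8 to 23.9. LINC00494 was the nearest gene of 16 regions, the most of any gene, and was at 0 to 0.09 TPM in all 8 libraries of the 24 h set.

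A list of 63 PAX3-FOXO1 targets and myogenic genes supplied the nearest gene of 53 regions, through 19 of its genes. Of these regions 37 were higher and 16 lower after P3FI-63, with a median log2 ratio of 0.31. JARID2, a Polycomb cofactor, was nearest to 10, KLF4, a zinc finger factor, to 9 and PAX3 to 8. The strongest region nearest to PAX3, at chr2:222941708-222942034 and 123 kb from it, was 327 bp wide with a fold enrichment of 31.2 in DMSO (rank 153) and 33.8 in P3FI-63 (rank 679). It lay under H3K4me3 and H3K9me2 in 4 of 6 libraries each, and under HP1 and H3K27me3 in both conditions. A total Pol2 peak lay there in DMSO only and a Pol2 Ser5 peak with P3FI-90 only. Of the other PAX3-nearest regions one went from 15.7 to 11.5 and one from 10.97 to 14.6. The FOXO1 region at chr13:41255756-41256078, 15.0 kb from the gene, kept its height (12.5009 and 12.8) while its width fell from 323 to 133 bp.

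Other regions of that list moved both ways. The strongest of 3 regions nearest to SOX8, a SOX factor expressed in muscle precursors, lay 38.4 kb from it and fell from 23.5 to 13.9, in a window with 29.4% distinct 8-base words, while the other 2 were higher (median log2 ratio of the 3, 1.10). The strongest KLF4 region fell from 21.1 to 15.3, and the stronger EYA1 region stood at 25.3 and 25.7. EYA1 and EYA2 encode transcriptional coactivators of muscle development, and the stronger EYA2 region went from 17.5 to 14.9 and the other from 6.27 to 13.8. Regions nearest to DUSP4 (16.3 to 27.05), NFIX (13.6 to 23.4) and RUNX1 (17.7 to 24.8) were higher after P3FI-63. By GENCODE this RUNX1 region and the stronger EYA1 region lay inside those genes.

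ChIP-seq peaks took no part in the choice of the regions. H3K4me3 peaks covered 22.3%, 1.93% and 22.9% of the 3634 regions in DMSO libraries 1, 3 and 4, and 22.5%, 2.12% and 24.2% in the P3FI-90 libraries of the same numbers. Library 3 stood apart in both conditions, and the conditions overlapped. The means were 15.7% ± 11.9 (SD, n = 3) and 16.3% ± 12.3 (SD, n = 3), a difference of 0.57 percentage points (exact two-sided permutation test, p = 0.7, where 3 against 3 cannot go below 0.1). The share was higher with P3FI-90 in 3 of 3 same-numbered pairs, by 0.19 to 1.32 points (exact sign-flip test over pairs, p = 0.25, the smallest that 3 pairs can give). Kept peaks near genes were covered far more often, at 48.9%, 15.7% and 46.96% in DMSO, and intergenic peaks not kept less often, at 12.55%, 0.896% and 15.2%. All these shares rest on peaks called per library, without spike-in scaling, and do not measure the amount of H3K4me3. From triplicates scaled to a Drosophila spike-in, the paper reported differential H3K4me3 peaks that only rose with P3FI-90.

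H3K4me3 at the kept intergenic regions fell on a minority that differed from the rest in other ways. No library had H3K4me3 at 2460 regions (67.7%) and all 6 had it at 55. The 628 regions marked in DMSO libraries 1 and 4 were wider (median 127 bp against 102 bp) and a little higher in DMSO (11.5 against 10.2), with an equal median log2 ratio (0.33 and 0.32). Pol2 Ser5, the form at initiation, lay at 30.9% of them, which was 63.2% of all regions with Ser5 in DMSO. Of the 270 regions with 10 or more CpGs, 60.7% were under H3K4me3 in DMSO library 1, against 19.3% of the others.

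H3K9me2 peaks covered 58.0%, 10.7% and 0.110% of the regions in DMSO libraries 1, 3 and 5, and 50.1%, 2.97% and 0.138% with P3FI-90. The lists differed in length by over 100 times, from 1266233 peaks covering 626 Mb in DMSO library 1, called down to a −log10 p of 1.00, to 9382 peaks in library 5. The means were 22.9% ± 30.8 (SD, n = 3) and 17.7% ± 28.1 (SD, n = 3), a difference of -5.20 points (exact two-sided permutation test, p = 0.7; exact sign-flip test over pairs, p = 0.5, lower in 2 of 3 pairs). With peaks of a −log10 p of at least 5 the shares were 1.57%, 3.47% and 0% in DMSO and 1.18%, 0.578% and 0.0275% with P3FI-90, a difference of -1.08 points (exact permutation test, p = 0.5). In libraries 1 and 3 the share was lower with P3FI-90, also at kept peaks near genes (38.0% to 31.6% and 6.02% to 1.24%). These shares count regions under peaks called per library, without spike-in scaling, and do not measure the amount of H3K9me2. From its triplicates, with counts scaled to a Drosophila spike-in, the paper reported differential H3K9me2 peaks that only rose with P3FI-90. It also described a rise across the genome that was largest at enhancers.

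HP1 showed the largest increase of the 7 targets. With 1 library per condition and so no test, HP1 peaks covered 18.9% of the regions in DMSO (688, 95% exact interval 17.7 to 20.2) and 37.5% with P3FI-90 (1362, 35.9 to 39.1). Of these, 617 had HP1 in both, 745 with P3FI-90 only and 71 in DMSO only. The P3FI-90 list was longer (41771 against 23615 peaks), and with its 23615 strongest peaks the share was 31.1%. Kept peaks near genes went from 8.72% to 19.5% and intergenic peaks not kept from 15.5% to 36.4%. Regions under HP1 in DMSO lay farther from genes (median 75026 bp against 42759 bp) and had a lower median log2 ratio of ATAC-seq fold enrichment (0.17 against 0.36). They were also wider (median 125 bp against 102 bp) and higher in DMSO (median fold enrichment 12.1 against 10.2). A lower ratio at higher DMSO values is built into the choice of regions, and its part here was not tested. HP1 was rare at the 270 CpG-rich regions, at 1.48% in DMSO and 5.93% with P3FI-90.

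RNA polymerase II peaks were fewer with P3FI-90. Total Pol2 covered 11.3% of the regions in DMSO and 1.02% with P3FI-90, but the lists held 6031 and 521 peaks, and with 521 peaks in each the shares were 1.93% and 1.02%. Pol2 Ser5 covered 8.45% and 5.86%, while with 7484 peaks in each list the direction turned, to 4.18% and 5.86%. Pol2 Ser2, the elongating form, covered 0.468% and 0.440% (17 and 16 regions). With 2268 peaks in each list its direction turned as well, to 0.220% and 0.440%. Lists cut to equal length no longer differ in peak number, so these shares cannot show a general loss of Pol2. They count regions under peaks and do not measure the amount of Pol2. From single libraries, the paper reported a decrease of total and phosphorylated Pol2 with P3FI-90, at start sites and at enhancers. Ser5 was more frequent at kept peaks near genes (26.7% in DMSO), and total Pol2 less frequent (7.95%). Total Pol2 and HP1 coincided: 282 of the 409 regions with Pol2 (68.9%) were among the 688 with HP1 (41.0% of these).

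H3K27me3 stayed level, at 48.3% in DMSO and 48.1% with P3FI-90, with 1100 regions in both lists, 655 in DMSO only and 648 with P3FI-90 only. Both lists reached down to a −log10 p of 1.00 and covered 445 and 453 Mb. The median log2 ratio of ATAC-seq fold enrichment was 0.32 with the mark and 0.32 without it.

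**Figure D4:**
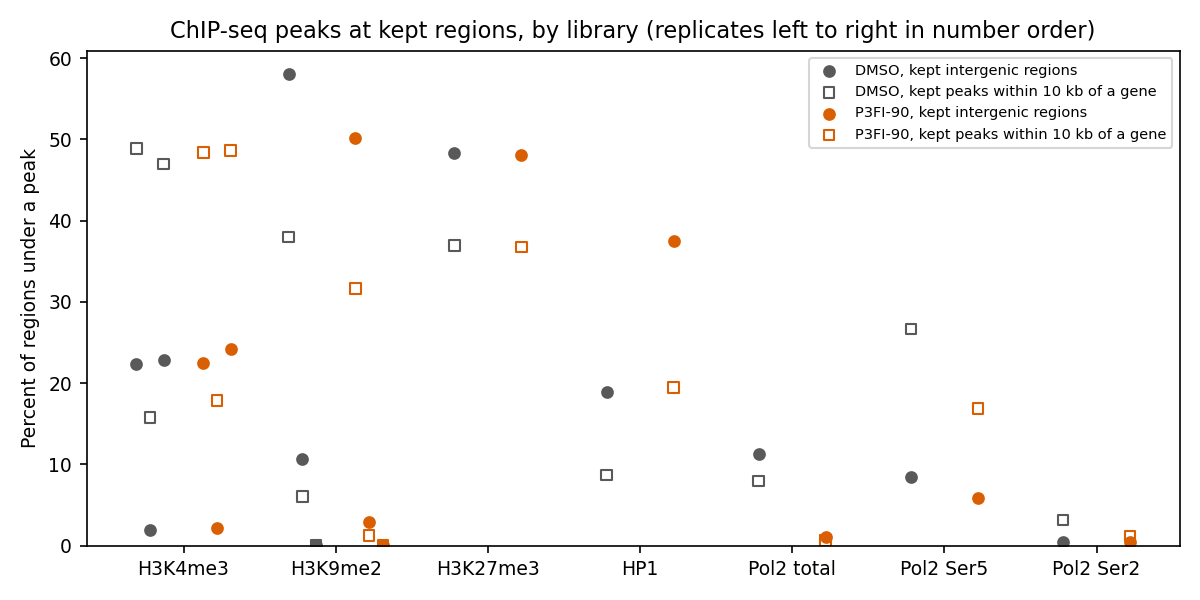
Percent of regions under a ChIP-seq peak (vertical) for each target (horizontal) and library, DMSO in grey and P3FI-90 in orange, with filled circles for kept intergenic regions and open squares for kept peaks within 10 kb of a gene. HP1 went from 18.9% to 37.5% of kept intergenic regions, and the libraries of H3K4me3 and H3K9me2 spread more within a condition than between conditions.

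The genes nearest to the regions were measured independently of the rule. There were 2055 of them, 1248 nearest to a single region, and 1064 (51.8%, against 54.4% of all genes) were below a mean of 1 TPM and were not tested. By limma on log2(TPM + 1), with Benjamini-Hochberg adjustment over the 12332 genes tested and an adjusted p under 0.05, 16 of the 991 tested nearest genes were higher after P3FI-63 (1.61%, where 1.16% of all genes were) and 24 lower (2.42%, where 1.21% were). The median log2 change was -0.40, against -0.35 over all genes. The count rested on single libraries: without P3FI-63 replicate 3, where the lone remaining library is assumed to vary like the other groups, 429 nearest genes were called (43.7%, and 39.3% of all genes), and without DMSO replicate 1, 3 or 4 the count was 14, 11 or 12. Scaling TPM by median ratios gave 43 higher and 26 lower (6.96% of nearest genes and 4.32% of all genes called). With the replicate number as a block, which takes out differences shared by same-numbered libraries, 42 were higher and 117 lower (16.0% of nearest genes and 11.01% of all genes called). With P3FI-90, 0 of 991 were called (0.00811% of all genes were higher and 0% lower); 32 (3.23%) had an unadjusted p under 0.05, against 1.98% of all genes.

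Nearest genes that rose after P3FI-63 included several immediate early and stress-response genes. CXCL8, a neutrophil chemokine, was at 1.81, 10.6 and 3.48 TPM in DMSO, 210 and 127 TPM with P3FI-63 and 13.5, 63.2 and 29.2 TPM with P3FI-90; the P3FI-63 libraries lay above all others, with a log2 change of 4.97 ± 0.70 (SE, limma adjusted p = 0.0092). FOSB, an AP-1 subunit, was at 0.41 to 0.46 TPM in DMSO and at 9.76 and 140 TPM with P3FI-63 (log2 change 4.77 ± 0.84). DUSP1 and DUSP5, phosphatases that switch off MAP kinases, rose by 3.07 and 3.67 (DUSP1 from 24.3 to 28.7 TPM in DMSO to 172 and 301 TPM). DDIT4 and BNIP3, stress genes that restrain mTOR and promote mitophagy, rose by 3.46 and 2.90, VEGFA, the angiogenic factor, by 3.17, the circadian repressor gene BHLHE40 by 3.68, the kinase gene SGK1 by 2.69 and the chaperone gene HSPH1 by 2.23. KLF4, nearest to 9 regions, rose by 2.13, from 6.99 to 9.96 TPM to 30.2 and 55.5 TPM. Without any 1 DMSO library the calls of FOSB (limma adjusted p 0.074 to 0.086), KLF4 (0.067 to 0.086) and HSPH1 (0.060 to 0.082) were lost, as were that of BNIP3 without DMSO replicate 4 (0.054) and that of FOSB without P3FI-90 replicate 1 (0.051). With P3FI-90 the 3 KLF4 values, 15.3 to 21.0 TPM, also lay above DMSO, but the gene was not called (log2 change 0.96, adjusted p = 1).

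Nearest genes that fell included developmental regulators. FGF8, a growth factor of the embryo, was at 15.7, 18.0 and 22.9 TPM in DMSO and 0.96 and 2.14 TPM with P3FI-63, without overlap (log2 change -2.98 ± 0.47, SE, limma adjusted p = 0.015). LRRN1, a leucine-rich repeat membrane protein gene and nearest to 9 regions, went from 25.6 to 28.3 TPM to 1.28 and 3.49 TPM (-3.13). The growth factor gene BMP5 (log2 change -2.24), the TEAD cofactor gene VGLL2 (-2.29) and SOX6, a SOX factor of muscle fibre type (-2.099), fell as well. SOX8 went from 197 to 278.65 TPM to 61.4 and 64.4 TPM (-1.94). The non-coding LOC101929726 (-4.10), LUZP2 (-3.07), the sulfatase gene SULF2 (-2.34), SLF2 (-2.19) and MCHR1 (-2.14), which had a region among the largest rises, also fell. HNRNPD, an RNA-binding protein gene, fell by 0.95, but its log2 change was -0.53 with median-ratio scaling and it was not called there (limma adjusted p = 0.25). Several of these calls needed every DMSO library. Without any 1 of the 3, FGF8 (limma adjusted p 0.061 to 0.069), SOX6 (0.064 to 0.11), SULF2 (0.093 to 0.11), MCHR1 (0.11 to 0.13), SLF2 (0.096 to 0.16), VGLL2 (0.091 to 0.18) and HNRNPD (0.13 to 0.18) lost the call. So did LUZP2 without DMSO replicate 1 or 3 (0.069 and 0.060) and SOX8 without replicate 3 or 4 (0.053 and 0.051) or with median-ratio scaling (0.055). SULF2, MCHR1, SLF2, VGLL2 and HNRNPD also lost it without at least 2 of the P3FI-90 libraries, each taken out alone (0.052 to 0.091). Without P3FI-63 replicate 4 the log2 change was -1.41 for SLF2, -1.86 for VGLL2 and -0.72 for HNRNPD, none of them called (0.094 to 0.13). MCHR1, SLF2 and VGLL2 were not called with no filter on the mean (0.056 to 0.063), nor MCHR1 with median-ratio scaling (0.060). The calls of LRRN1, BMP5 and LOC101929726 held under every alternative.

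Neither gene of the fusion passed the test. PAX3 was at 17.4 to 23.5 TPM in DMSO, 11.7 and 5.42 TPM with P3FI-63 and 12.2 to 14.4 TPM with P3FI-90, so both compounds' values lay below DMSO (log2 change -1.24 ± 0.37 with P3FI-63, limma adjusted p = 0.12). FOXO1 was at 28.3 to 43.5 TPM in DMSO and 19.0 and 7.44 TPM with P3FI-63 (-1.56 ± 0.44, limma adjusted p = 0.10), and with P3FI-90 its 17.1 to 32.5 TPM overlapped DMSO. Of the 63 listed PAX3-FOXO1 and myogenic genes 56 were tested, 3 rose (5.36%, where 1.16% of all genes did) and 10 fell (17.9%, where 1.21% did) after P3FI-63, and 0 were called with P3FI-90; their median log2 changes were -0.94 and -0.24, against -0.35 and -0.08 over all genes. The list was chosen with earlier results of these data known, so these shares are a description only. Of its genes, 19 were nearest to a kept intergenic region.

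**Figure D5:**
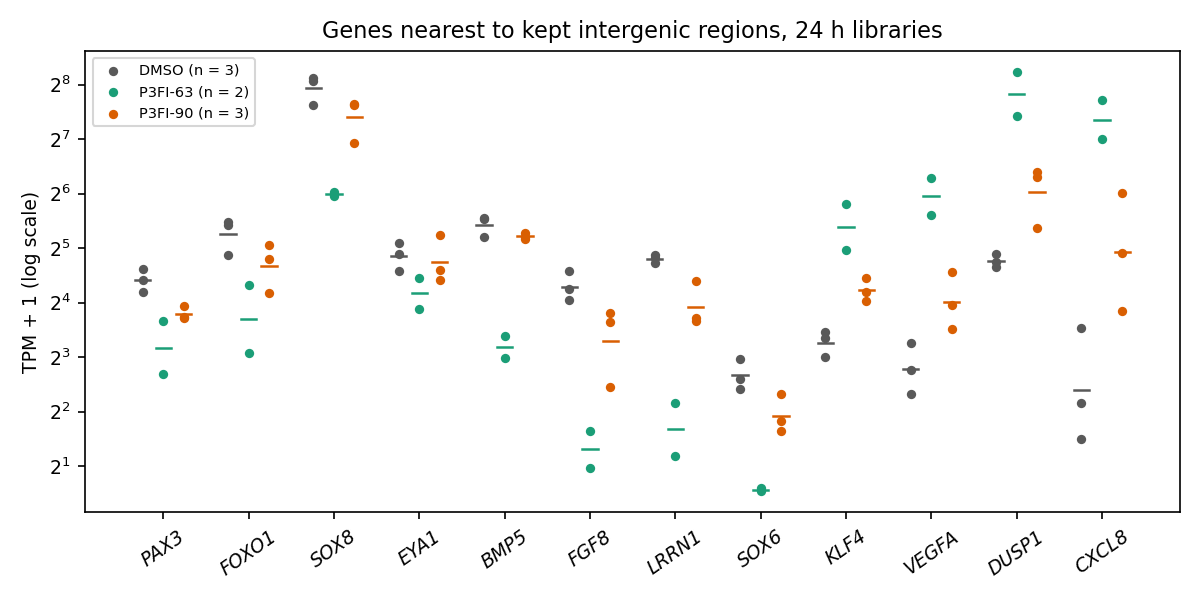
TPM + 1 (vertical, log scale) of 12 genes nearest to kept intergenic regions in the 24 h libraries, picked for the figure from those described here after their values were seen. Each point is a library and each bar the mean of log2(TPM + 1); for CXCL8, DUSP1, VEGFA and KLF4 the P3FI-63 libraries lie above DMSO, and for SOX8, BMP5, FGF8, LRRN1 and SOX6 below.

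Accessibility at 4 h and expression at 24 h were set side by side. The 33 regions nearest to the 16 genes that rose had a median log2 ratio of ATAC-seq fold enrichment of 0.44 (quartiles -0.17 and 0.88; 22 higher, 11 lower), the 55 nearest to the 24 genes that fell had 0.27 (-0.03 and 0.58; 39 higher, 16 lower), and the 1720 nearest to genes that were not called had 0.35. The quartiles of the 3 groups overlapped widely. Single genes went either way: the regions nearest to FOSB and DDIT4 had medians of 0.98 and 1.13, while those nearest to CXCL8 and SGK1 were at -0.66 and -0.56 although both genes rose, and the FGF8 region was at 0.97 although FGF8 fell.

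In the screen pair, 1 library each and so without a test, 43 of 994 nearest genes (4.33%) were more than 2-fold higher in TPM + 1 with P3FI-63, where 2.48% of all genes were, and 10 (1.01%) were more than 2-fold lower, where 0.794% were. BNIP3 (62.1 TPM in DMSO and 508 TPM with P3FI-63), DDIT4 (23.7 and 182 TPM), BHLHE40 (5.12 and 42.6 TPM) and VEGFA (6.53 and 29.9 TPM) were higher there as well, while CXCL8 was at 0.70 and 1.89 TPM. LUZP2 (32.3 and 7.27 TPM) and FGF8 (50.2 and 13.9 TPM) were lower. LOC101929726 (77.7 and 70.7 TPM) and SLF2 (74.2 and 71.5 TPM) changed little and MCHR1 was at 6.64 and 9.52 TPM. The labels give 24 h for this pair, while the paper describes a shorter P3FI-63 treatment for its first RNA-seq result. The part of treatment time in differences from the other libraries was not tested.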

How the data were processed

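RH4 cells were profiled by ATAC-seq, ChIP-seq and RNA-seq. The authors mapped reads to hg19 (GRCh37) with BWA, called ATAC-seq and ChIP-seq peaks per library with MACS2 and deposited them with fold enrichment over background, a ratio, and −log10 p values. The peak lists hold no read depth, and none was used here. The authors quantified RNA-seq with STAR and RSEM and deposited TPM with gene intervals.

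From these files, overlaps, distances, ranks and motif matches were computed with Python 3.11.15. Regions and gene lists were chosen with earlier results of these data known. limma 3.58.1 (R 4.3.3) was fitted to log2(TPM + 1) in 8 libraries, leaving out genes whose mean was under 1 TPM, after a test on simulated data. Fold changes on this scale understate those of low genes. Same-numbered RNA-seq libraries deviated together (correlations 0.31 to 0.64, each highest with its own number), as did ChIP-seq libraries (0.11 to 0.81). Named regions were the 10 highest, 5 widest, 5 largest rises and falls, 3 on each side of 10 kb, 5 longest runs (a sixth run of 5, near PTPN1, tied) and up to 20 of the gene list. Named genes were their nearest genes and the 10 largest changes each way.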

Additional observations from a re-analysis of the deposited data

How the results depend on the processing

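The share of intergenic DMSO peaks kept, 78.4%, depended on the overlap and on the length of the P3FI-63 list. It was 72.1% when 50% of the DMSO peak had to be covered, 58.6% with 50% of both peaks, 57.5% when the P3FI-63 list was reduced to as many peaks as the DMSO list, and 74.98% beyond 50 kb from genes. Beyond 50 kb there were 1753 kept regions with a median log2 ratio of 0.26, and without gene intervals over 2.5 Mb (an alternative chosen after seeing the data, as were equal peak numbers and the looser CTCF match) there were 6055. Dividing the fold enrichment of each list by its median over all kept peaks turned the median log2 ratio to -0.16. The CTCF share was 1.54% within 50 bases of the summit, 1.82% within the peak and 10.8% with 1 letter free. With equal peak numbers the difference for HP1 was 12.2 points, for total Pol2 -0.91 and for Pol2 Ser5 1.68, against -2.59 with the whole lists. For Pol2 Ser2 it was 0.22, against -0.028 with the whole lists.

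Leaving out single libraries moved the H3K4me3 difference between -6.32 and 7.65 points and turned it to -6.32 without DMSO replicate 3, -2.56 without P3FI-90 replicate 1 and -3.38 without P3FI-90 replicate 4. The H3K9me2 difference ranged from -21.4 to 12.3 and turned to 12.3 without DMSO replicate 1, 2.18 without P3FI-90 replicate 3 and 3.60 without P3FI-90 replicate 5. With the pairing as a block these differences kept their size, 0.57 (p = 0.25) and -5.20 (p = 0.5) by exact sign-flip tests. Without both libraries of a number they were 0.757, 0.757 and 0.193, and -3.85, -3.94 and -7.82. With stricter peaks the H3K9me2 difference was -1.08.

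Of nearest genes, 40 passed limma after P3FI-63. The count was 69 (43 higher, 26 lower) with median-ratio scaling of TPM, where 4.32% of all genes passed, 159 with the replicate block (11.01% of all genes) and 11 to 429 without single libraries (0.54 to 39.3% of all genes): 429 without P3FI-63 replicate 3, and 14, 11 and 12 without DMSO replicate 1, 3 and 4, 25, 25 and 23 without P3FI-90 replicate 1, 3 and 4. With P3FI-90 the block gave 1 gene, CXCL8, and each single library left out gave 0. Of the 23 called genes named, 0 reversed and 13 lost the call under at least 1 alternative; the cause was not tested. The ATAC-seq values rest on 1 library per condition.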
